A study of Mus musculus with 10 samples.

Results

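Mouse embryonic stem (ES) cells in which the lncRNA *Hottip* was the target of an artificial activator were compared directly with cells in which the neighbouring gene *Hoxa13* was the target. The comparison used 7 of the 10 arrays of the series, chosen by their labels: 4 after *Hottip* gRNAs and 3 after *Hoxa13* gRNAs. All 7 came from E14 cells of the 129/Ola background, grown in serum with Lif and transfected transiently with a plasmid for dCas9-VP160 and a pool of 5 guide RNA (gRNA) plasmids that also carried mCherry and puromycin resistance. Puromycin (2 µg/ml) was added for 24 h and RNA was taken 48 h after transfection, so both groups shared the activator, the selection and the time and differed, by their labels, in the guides. The replicates are labelled as biological, no clone was derived, and how many of the 5 guides a cell received was not measured. The 3 control arrays (non-targeting guides, with dCas9 alone according to the labels' protocol) entered only alternative fits and are given as a background level.

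Hox genes encode homeodomain transcription factors laid out along the chromosome in the order in which they are used along the body axis, and *Hoxa13* closes the posterior (5') end of the Hoxa cluster. *Hottip* is transcribed away from *Hoxa13*, from a start just upstream of it. dCas9 is a Cas9 without nuclease activity that stays at the site its guide matches, and VP160 is a chain of repeats of the VP16 activation domain. ES cells hold most Hox genes silent, which makes single induced genes visible against a low background.

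The sequences of the guides are shown because they are what differed between the groups, each from 5' to 3' in lower case with the PAM that follows the target in capitals. They were matched to RefSeq start windows of the build GRCm38.p6. The first pool lay before the *Hottip* start.
*Hottip* gRNA 1: gcagtaagaaggtaaactcgGGG
*Hottip* gRNA 2: tctcctgactttagcggtccTGG
*Hottip* gRNA 3: tacccaggaccgctaaagtcAGG
*Hottip* gRNA 4: ggatcagggaaggttttattGGG
*Hottip* gRNA 5: gggatcagggaaggttttatTGG
The second pool lay before the *Hoxa13* start, and 3 of its guides are shown.
*Hoxa13* gRNA 2: catacgccgggggcgggccgGGG
*Hoxa13* gRNA 4: cgggccgggggcgggccaatGGG
*Hoxa13* gRNA 5: cgggccaatgggcggccgccTGG

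The *Hottip* targets lay on chromosome 6 between 52262547 and 52262665, 110 to 228 bases before the *Hottip* start at 52262775 (plus strand). The *Hoxa13* targets shown lay between 52260901 and 52260944, 21 to 64 bases before the *Hoxa13* start at 52260880 (minus strand). The starts were 1895 bases apart, and the *Hottip* targets began 1667 bases from the *Hoxa13* start, so the promoter sites of both pools lay close together. The pools were unlike in base composition, with a G and C content of 40% to 55% in the *Hottip* targets and 85% in each of the 3 *Hoxa13* targets shown. Targets overlapped within each pool, and 67 bases were covered by the *Hottip* guides. No guide had an exact match with a PAM in any of the 32851 other start windows searched (250 bases before to 50 after each start). The 12 bases next to the PAM of *Hoxa13* gRNAs 2 and 4 were also found in the windows of 18 other genes, of which 14 were tested on the arrays and 0 were called. Their differences ran from −0.86 (*Tmem53*) to 0.80 (*Zbtb21*) on the log2 scale, and 0 had an unadjusted p under 0.05.

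A level is the log2 of a probe's processed signal relative to the 75th percentile of its array, and a difference is the mean level after *Hottip* gRNAs minus that after *Hoxa13* gRNAs. Differences were fitted with limma and called at an adjusted p under 0.05, over the 20987 probes that stood well above background on 3 or more of the 7 arrays. The 75th percentile of the intensity was 586 to 1086 on the *Hoxa13* gRNA arrays and 948 to 2572 on the *Hottip* gRNA arrays, and 31.9% to 41.1% of probes were well above background. *Hoxa13* gRNA replicates 1 and 2 were on one slide and the other 5 arrays on another, together with the control arrays. Among probes well above background on all 7 arrays, levels of *Hottip* gRNA arrays correlated with *Hoxa13* gRNA replicate 3 at 0.926 to 0.960 and with replicates 1 and 2 at 0.868 to 0.922, against 0.904 to 0.966 among themselves. The last 30 of the 384 rows of spots held many spots marked as outliers, 0.974% to 39.9% of them on an array against 0.256% to 4.36% elsewhere.

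The 2 *Hoxa13* probes were well above background on 0 of 3 arrays labelled with *Hoxa13* gRNAs. The targeted gene therefore does not bear out the label of these arrays, while it was detected on all 4 arrays labelled with *Hottip* gRNAs. Group names below are those of the labels, and every direction given rests on labels that these arrays could not check. *Hottip*, *Hotairm1* and *Halr1* had no probe under their names, so the induction of *Hottip* itself could not be checked on these arrays.

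After *Hottip* gRNAs, the posterior Hox genes *Hoxa13*, *Hoxa10* and *Hoxb13*, the caudal factors *Cdx1* and *Cdx2*, a run of genes at the imprinted *Igf2*-*H19* locus and the methyl-transfer enzyme gene *Bhmt* were higher than after *Hoxa13* gRNAs, while the actin genes *Acta1* and *Acta2*, the actin-binding protein gene *Tagln* and the cyclin gene *Ccnd2* were lower. In all, 55 probes were called (0.262% of those tested), 47 higher (0.224%) and 8 lower (0.0381%), for 39 and 7 named genes. The arrays of the groups did not overlap at any of the 55, and over all tested probes this held for 5.01% on the higher and 12.8% on the lower side. At an unadjusted p under 0.05 there were 2777 probes. The authors' log2 values gave 19 higher and 13 lower, and background correction by normexp 18 higher and 23 lower, in place of 47 and 8. Of the 55 probes, only 19 were among the calls in the authors' log2 values and 15 among those with normexp. When the last 30 rows of spots were left out, a choice made after seeing the data, 134 probes were called (92 higher, 42 lower), among them all 55.

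The number of calls rested on single arrays. It was 11 without *Hottip* gRNA replicate 2, 15 without replicate 4, and 18, 13 and 23 without *Hoxa13* gRNA replicates 1, 2 and 3. The calls that held without any one array were 10 probes of 8 genes, *Hoxa13*, *Bhmt*, *Igf2*, *Hesx1*, *Atoh1*, *Igf2os*, *Tchh* and *Hoxa10*. Each of the remaining 45 probes lost its call without at least 1 array.

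**Figure D1:**
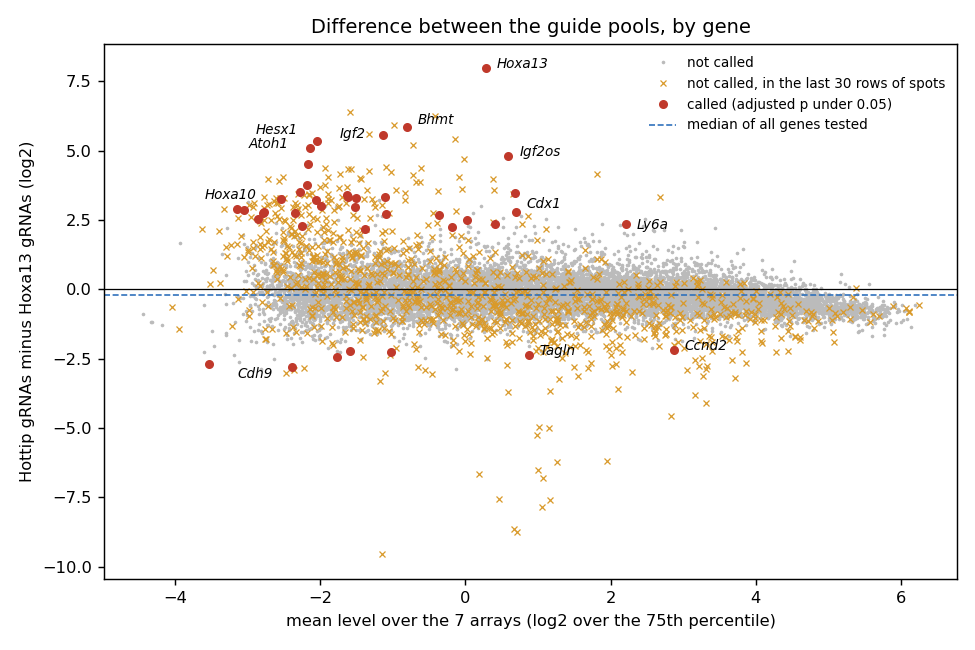
Difference between the guide pools (vertical axis, log2) against the mean level over the 7 arrays (horizontal axis, log2 over the 75th percentile) for 11749 genes, each by its brightest probe. Red points are the 40 genes called by limma, crosses are genes in the last 30 rows of spots, none of them called, and the dashed line is the median of all genes at −0.22.

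Large differences alone did not mark the called genes. Of the 118 genes tested that differed by more than 3 on the log2 scale in either direction, 98 lay in the last 30 rows of spots and 0 of these were called. The 20 genes elsewhere with a difference of this size included 17 of the called genes. Called probes in the last 30 rows numbered 0.

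*Hoxa13* was the gene with the largest difference among those called. Its brighter probe (A_55_P1970075) had levels of 3.60, 4.16, 3.88 and 3.17 on the *Hottip* gRNA arrays and −3.68, −4.80 and −4.31 on the *Hoxa13* gRNA arrays. All 4 *Hottip* gRNA arrays were far above all 3 others, which lay in the range of the control arrays (−5.84, −5.00 and −3.46). The difference was 7.96 (standard error 0.38, limma adjusted p = 0.00022), written here as at least 201-fold. In folds written as at least, each dim array enters with its own signal or, if larger, the weakest signal detected on it. That weakest level was −3.11, −4.42 and −4.92 on the *Hoxa13* gRNA arrays. Brighter probes could still be undetected: *Th*, at a mean level of −2.38, was detected on 2 of these 3 arrays. These folds are therefore not strict lower limits, and a true fold could be smaller. The other *Hoxa13* probe (A_51_P303316) differed by 7.89, at least 131-fold. Against the single *Hoxa13* gRNA array on the shared slide the differences of the probes were 8.01 and 8.11. The exact permutation test of single genes cannot give a p under 0.0286 for 4 arrays against 3, and the brighter *Hoxa13* probe reached this p.

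The rise extended to *Hoxa10* and to the antisense RNA of *Hoxa11*, and no Hoxa gene further along the cluster was called. *Hoxa10* had levels of −1.31, −1.32, −0.60 and −1.37 against −4.41, −4.27 and −4.53. The groups were well separated, and replicate 3 was the highest of the *Hottip* gRNA arrays. The difference was 3.25 (standard error 0.31, limma adjusted p = 0.00745), at least 7.06-fold. *Hoxa11os*, transcribed antisense to *Hoxa11*, had levels of −0.57, 0.17 and −0.50 on *Hottip* gRNA replicates 2 to 4 (replicate 1 had an outlier spot) against −3.29, −4.26 and −4.65, a difference of 3.77 (limma adjusted p = 0.0279), at least 13.1-fold. *Hoxa11* itself was well above background on no array and was not tested with adjustment. Its levels, −3.63 to −3.11 against −4.73 to −4.26, did not overlap between the groups (two-sided exact permutation test, p = 0.0286). This is the smallest p possible for 4 arrays against 3, and such separation held for 5.01% of all tested probes on the higher side.

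The remaining Hoxa genes gave no call, and 5 of the 8 were too dim to be tested. *Hoxa9*, the next gene of the cluster, had levels of −0.75, −0.45, −1.09 and −1.56 against −0.88, −0.04 and −1.87, and these overlapped throughout (difference −0.03, standard error 0.48, limma adjusted p = 0.979). *Hoxa7* differed by −0.43, within the spread of the arrays. On the other side of *Hoxa13*, the even-skipped homologue *Evx1* had levels of −1.22, −1.55 and −1.27 on 3 *Hottip* gRNA arrays and −5.30, −3.44 and −2.73 on the *Hoxa13* gRNA arrays. These did not overlap, which held for 5.01% of all tested probes on the higher side. *Evx1* was well above background on 2 arrays only, so it was not tested, and its probe lay in the last 30 rows of spots. *Hibadh*, a mitochondrial enzyme gene further out, lay in the same rows (difference −3.22, limma adjusted p = 0.233). *Skap2*, at the anterior end, differed by 0.08.

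**Figure D2:**
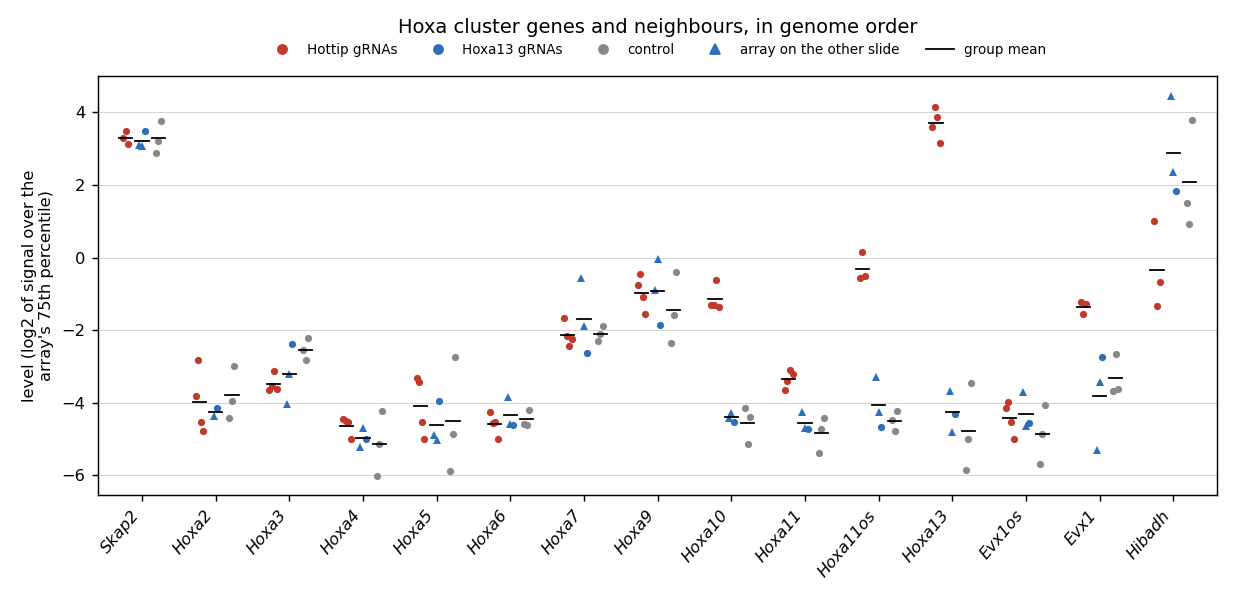
Levels (vertical axis, log2 of signal over the array's 75th percentile) of Hoxa cluster genes and neighbours in genome order (horizontal axis), one point an array and a bar at each group mean, with triangles for the Hoxa13 gRNA arrays on the other slide. Hoxa13, Hoxa11os and Hoxa10 after Hottip gRNAs stood above both other groups, and Hoxa9 and Hoxa7 did not.

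The other Hox clusters were mostly silent on these arrays. Of 28 Hoxb, Hoxc and Hoxd genes with a probe, 5 were tested and 1, *Hoxb13*, was called. *Hoxb13*, the posterior end of the Hoxb cluster, had levels of −0.95, −0.31 and −0.12 on *Hottip* gRNA replicates 2 to 4 against −3.37, −4.11 and −3.52. The *Hoxa13* gRNA arrays were also below the control arrays (−2.05, −2.26 and −3.28). The difference was 3.21 (limma adjusted p = 0.0279), at least 8.69-fold. *Hoxb9* differed by 1.27 (adjusted p = 0.422), *Hoxd11* by 0.53, *Hoxc13* by 0.07 and *Hoxd13* by −0.47, and these 4 were not called. Of the 10 TALE genes tested, which encode Meis, Pbx and related DNA-binding partners of Hox proteins, 0 were called, with *Meis2* at −0.95.

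Genes that act with Hox genes in the posterior embryo were next. *Cdx1* and *Cdx2* encode caudal homeodomain factors that set the posterior axis, and *Cdx2* also directs trophectoderm. *Cdx2* had levels of −0.10, 0.32, 0.59 and 0.46 against −2.17, −3.33 and −3.48, a difference of 3.31 (standard error 0.39, limma adjusted p = 0.0189). *Cdx1* had levels of 1.09, 1.75, 2.57 and 2.15 against −0.83, −1.03 and −0.83, a difference of 2.79 (standard error 0.38, limma adjusted p = 0.0339). For both genes all *Hottip* gRNA arrays were above all other arrays, controls included. Of the 6 caudal and posterior streak genes tested, these 2 were called, and the Wnt ligand gene *Wnt8a* (1.13) and the Wnt target *Sp5* (0.98) were not (adjusted p = 0.36 and 0.34). The other 2 lay below 0, the zinc-finger gene *Sp8* at −1.89 (adjusted p = 0.36) and the retinoic acid hydroxylase gene *Cyp26a1* at −0.21. *Cdx4* was well above background on no array.

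The *Igf2*-*H19* locus, an imprinted region in which a fetal growth factor gene and a noncoding RNA gene lie side by side, held 3 called genes and had a further called gene nearby. *Igf2* had levels of 1.17, 0.92, 1.82 and 1.09 against −3.33, −4.42 and −5.22, and was well above background on all 4 *Hottip* gRNA arrays and on none of the 3 others. The difference was 5.57 (standard error 0.47, limma adjusted p = 0.00384), at least 42.3-fold. *Igf2os*, its antisense transcript, had levels of 2.81, 2.95, 2.82 and 2.05 against −1.94, −2.18 and −2.36, a difference of 4.82 (limma adjusted p = 0.00101). *H19* had levels of −1.59, −1.45, −1.58 and −1.72 against −4.81, −4.39 and −3.89 at the probe that was tested, a difference of 2.78 (limma adjusted p = 0.0151), at least 4.65-fold. The 4 other *H19* probes were too dim to be tested and differed by 0.79 to 1.53.

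The neighbours of this locus were looked at after its values had been seen, in the order RefSeq gives them. *Lsp1*, a leukocyte actin-binding protein gene on the *H19* side, was called (−0.80, −0.90 and −1.20 on 3 *Hottip* gRNA arrays against −4.20, −3.63 and −3.34; difference 2.75, limma adjusted p = 0.0359). Between it and *H19*, the muscle gene *Tnnt3* differed by 1.21 and the ribosomal protein gene *Mrpl23* by −0.38, and neither was called. Beyond *Igf2os*, *Th* differed by 0.63 and *Tspan32* by 1.43, also without a call. *Ascl2*, an imprinted trophoblast regulator between them, had levels of 0.82, 1.51 and 1.20 against −1.07, −1.07 and −1.19 and narrowly missed the threshold (difference 2.29, limma adjusted p = 0.0532). It was called without the last 30 rows of spots (adjusted p = 0.0164). Further on, the growth inhibitor genes *Cdkn1c* (0.20) and *Phlda2* (0.75) were within the spread of the arrays.

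The rest of the insulin-like growth factor pathway held no further call. Of 13 genes tested, the 3 above were called. The receptor genes *Igf1r* (0.19), *Igf2r* (−0.05) and *Insr* (−0.18) and the genes of the mRNA-binding proteins *Igf2bp1*, *Igf2bp2* and *Igf2bp3* (−0.41 to 0.41) had adjusted p of 0.491 or more. Of 18 imprinted genes tested other than *Igf2* and *H19*, *Ascl2*, *Cdkn1c* and *Phlda2* included, 0 were called, with 4 higher and 1 lower at an unadjusted p under 0.05. The median was 0.02. After *Ascl2*, *Peg12* came closest (2.96, limma adjusted p = 0.0573, with 1 of 3 *Hoxa13* gRNA arrays left out as an outlier), and *Peg3* differed by 1.42, and by 0.19 against the array on the shared slide.

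*Bhmt* encodes betaine-homocysteine methyltransferase, which regenerates methionine from homocysteine with betaine as the methyl donor. Its probe A_55_P2105180 had levels of 0.72, 1.32, 1.86 and 2.11 against −4.44, −4.72 and −4.66. It was undetected on every *Hoxa13* gRNA and control array and detected on every *Hottip* gRNA array (difference 6.11, standard error 0.38, limma adjusted p = 0.000833, at least 47.4-fold). A second probe gave 5.83, at least 45.1-fold, and another, dimmer one 2.37 without a call (adjusted p = 0.128). Of 27 genes tested for methionine, folate, serine and threonine metabolism, *Bhmt* alone was called. The folate enzyme gene *Mthfd1l* differed by 1.70 and the serine enzyme gene *Shmt2* by −1.11 (adjusted p = 0.349 and 0.339), and *Mthfd1l* by 0.13 against the array on the shared slide.

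Other called genes belonged to no list and were of many kinds. *Hesx1*, a homeobox gene of the early forebrain and pituitary, had levels of 0.92, 0.22 and 0.75 on *Hottip* gRNA replicates 2 to 4 against −5.32, −4.23 and −4.58 (difference 5.34, limma adjusted p = 0.00445, at least 24.3-fold). *Atoh1*, a proneural factor of hair cells and granule neurons, had levels of −0.37, −0.04, 0.73 and −0.12 against −4.53, −5.61 and −5.02 (difference 5.11, limma adjusted p = 0.00193, at least 18.4-fold). *Tchh*, which encodes the hair follicle protein trichohyalin, differed by 4.52 (limma adjusted p = 0.00154, at least 14.2-fold). These 3 were undetected on every *Hoxa13* gRNA and control array. *Dppa1* (3.75), the interferon-family gene *Ifit1bl2* (3.46), the protein kinase gene *Prkch* (3.40), *Ccm2l* (3.35), the erythrocyte anion exchanger gene *Slc4a1* (3.31) and *Septin4* (3.30) completed the 15 largest rises, with limma adjusted p of 0.00884 to 0.0458. *Anxa1*, an annexin gene, and *Ly6a*, which encodes the surface protein Sca-1, were bright in both groups: *Ly6a* had levels of 3.09, 3.30, 3.37 and 3.13 against 0.40, 1.21 and 0.99 (difference 2.36, limma adjusted p = 0.0264). The second *Anxa1* probe disagreed with the called one (1.01 against 2.92).

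Of the 47 probes called higher, 32 were well above background on no *Hoxa13* gRNA array, so most of these differences run from undetected to detected. These 32 passed the filter on dim probes only through the *Hottip* gRNA arrays, which favours this pattern. The share over all tested probes is not given here. All 47 had every *Hottip* gRNA array above every control array, which held for 6.35% of all tested probes. Choosing probes that are high after *Hottip* gRNAs favours this. At 7 of the 47 every *Hoxa13* gRNA array was below every control array, against 6.4% of all tested probes, and the choice of probes favours this too. By transcript class, 40 of the 47 were probes of protein-coding RefSeq genes, out of 14867 tested probes of this class. Long noncoding RefSeq genes held 3 (*H19*, *Igf2os* and *Hoxa11os*) out of 175 tested probes. The other classes held 2 of 3457 (other transcripts or unnamed probes), 2 of 2370 (probes named by a genome region) and 0 of 118 (other RefSeq genes). Whether the share called differs between classes was not tested.

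**Figure D3:**
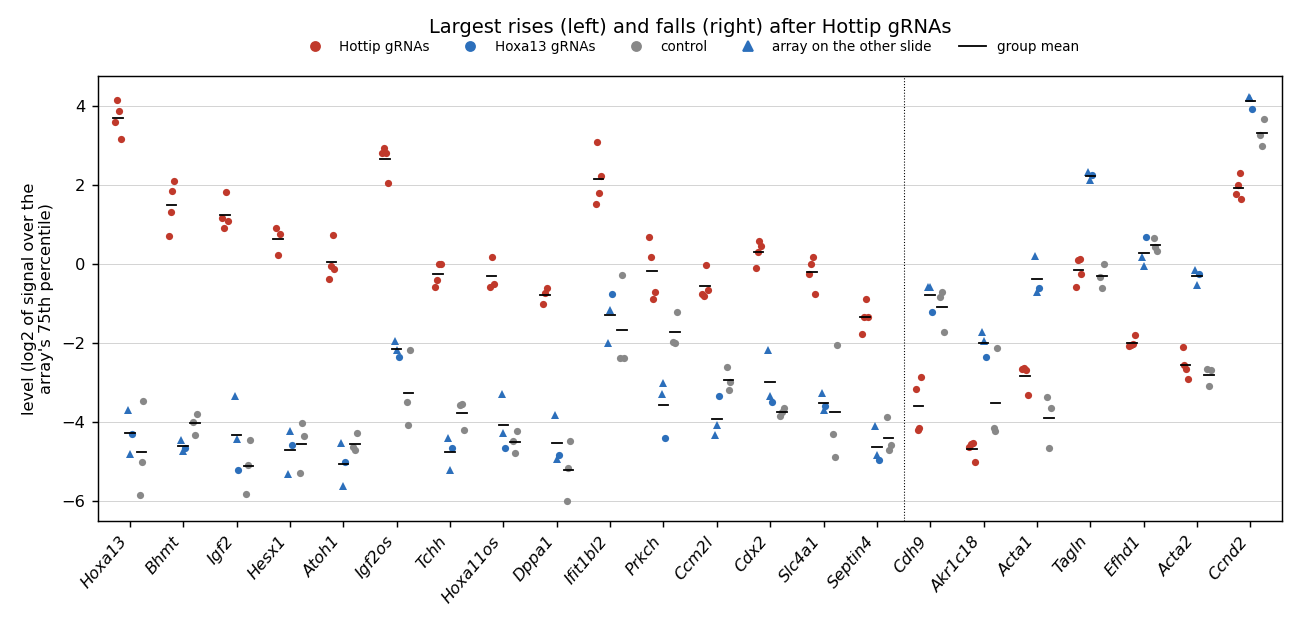
Levels (vertical axis, log2 of signal over the array's 75th percentile) for the 15 largest rises (left of the dotted line) and the 7 falls (right), one point an array and a bar at each group mean, with triangles for the Hoxa13 gRNA arrays on the other slide. For the rises the Hoxa13 gRNA and control arrays lay below 0, while Acta1, Acta2 and Tagln were highest on the Hoxa13 gRNA arrays.

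Among the genes called lower after *Hottip* gRNAs, *Acta1* (skeletal muscle actin), *Acta2* (smooth muscle actin) and *Tagln* (the actin-binding protein transgelin) formed a group. *Tagln* had levels of −0.58, 0.09, 0.14 and −0.25 against 2.33, 2.13 and 2.25, with the control arrays at −0.33, −0.59 and 0.01. The *Hottip* gRNA arrays thus lay beside the control arrays and the *Hoxa13* gRNA arrays stood apart (difference −2.39, standard error 0.30, limma adjusted p = 0.0224). *Acta2* had levels of −2.10, −2.55, −2.64 and −2.91 against −0.15, −0.53 and −0.24, a difference of −2.25 (limma adjusted p = 0.0313). *Acta1* differed by −2.46 (limma adjusted p = 0.0359), and its control arrays (−3.36, −4.65 and −3.64) were below all 7 arrays, *Hottip* gRNA replicate 4 (−3.32) lying closest to them. At 4 of the 8 lower probes every *Hoxa13* gRNA array was above every control array, against 17.6% of all tested probes, and at 5 of the 8 every *Hottip* gRNA array was below every control array, against 7.01%. Choosing probes that are low after *Hottip* gRNAs and high after *Hoxa13* gRNAs favours both.

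For *Efhd1* and *Cdh9* the *Hottip* gRNA arrays were the ones that stood apart, and for *Ccnd2* both groups differed from the control arrays, in opposite directions. *Ccnd2*, the cyclin D2 gene, had levels of 1.78, 2.01, 2.30 and 1.64 against 4.24, 4.20 and 3.94, with the control arrays between the groups at 3.26, 2.98 and 3.68 (difference −2.19, limma adjusted p = 0.0295). *Efhd1*, a mitochondrial calcium-binding protein gene, had levels of −2.08, −2.05, −2.01 and −1.81 against 0.17, −0.06 and 0.69, and the control arrays (0.33 to 0.67) lay with the latter (difference −2.26, limma adjusted p = 0.0279). The cadherin gene *Cdh9* differed by −2.80 (limma adjusted p = 0.0496). *Akr1c18*, a progesterone-reducing enzyme gene, differed by −2.68 (limma adjusted p = 0.0151). These 7 genes were the only named genes called lower. Without the last 30 rows of spots, 42 probes were called lower, and *Col1a1* (−2.53), the orphan receptor gene *Nr2f1* (−2.28) and a probe of the neural factor gene *Pax6* (−1.85) were among them.

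**Figure D4:**
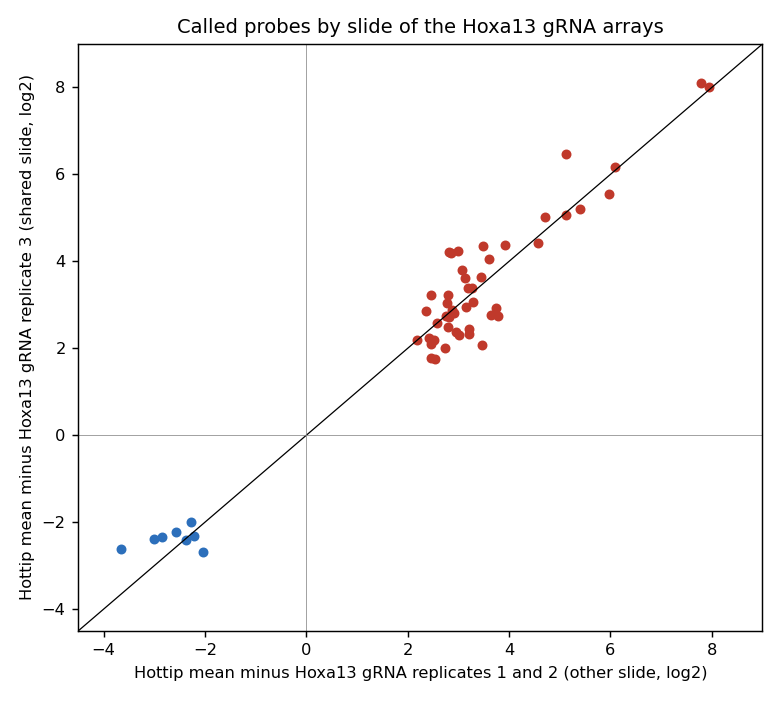
Difference between the guide pools (log2) for the called probes against the Hoxa13 gRNA arrays on the other slide (horizontal axis) and against the one array on the shared slide (vertical axis), with the line of equality. Against the array on the shared slide the 47 higher probes differed by 1.75 to 8.11 and the lower ones by as much as −2.68, with signs that the choice of probes without overlap had fixed.

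The slide moved with the groups in part, and its part in the differences was not tested. The 1 *Hoxa13* gRNA array on the shared slide was among the arrays that chose the 55 called probes, and since their groups did not overlap, the direction against it was fixed by that choice. Of the 55, 19 were called on the shared slide, in a fit that assumes the lone array varies like the *Hottip* gRNA arrays, and 24 in the fit that blocks on the slide, which again depends on that array.

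Sets of genes are described by their members called and by their median, beside the same over all 11749 genes tested by their brightest probe. Of these, 33 were called higher (0.281%) and 7 lower (0.0596%), 40 in all (0.34%), and 457 (3.89%) and 911 (7.75%) had an unadjusted p under 0.05 in each direction. The lists held 674 tested genes, of which 13 were called. The median difference of all genes was −0.22 in this scaling, −0.05 after quantile normalization and 0.02 in the authors' log2 values. Bright probes, those with a mean level over 3, carried this shift, with a median of −0.52 that became 0.006 after quantile normalization. List medians of brightly expressed genes are therefore given with their scaling.

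Trophoblast regulators and simple keratins were the list with the highest median among those with 6 or more genes tested, in the 3 scalings and on the shared slide. The lists were chosen with earlier results of these data known, which can favour such a rank, and *Cdx2* also counts in the caudal list. The median of the trophoblast list over 12 tested genes was 1.45, and it was 1.43 after quantile normalization, 1.40 in the authors' log2 values and 1.98 against the array on the shared slide. *Cdx2* and *Gata3*, a zinc-finger factor of trophectoderm, were called, and 7 of the 12 had an unadjusted p under 0.05 on the higher side. *Gata3* had levels of −0.24, −0.04, 0.26 and 0.30 against −2.35, −2.44 and −3.17, without overlap (difference 2.72, standard error 0.32, limma adjusted p = 0.0189). *Ascl2* (2.29), the keratin gene *Krt7* (2.06, adjusted p = 0.117), the transcription factor gene *Tfap2c* (1.97, adjusted p = 0.193), *Krt19* (1.53, adjusted p = 0.13) and *Peg10* (1.36, adjusted p = 0.315) missed the threshold, while *Krt8* (0.28), *Krt18* (−0.07) and *Eomes* (0.33) were near 0. *Elf5* and *Hand1*, defining genes of the trophoblast lineage, were well above background on no array. The summed signal of 6 trophoblast markers was 2.34 to 3.45 times the 75th percentile on the *Hottip* gRNA arrays and 0.39 to 0.795 times on the *Hoxa13* gRNA arrays. The markers were *Cdx2*, *Gata3*, *Krt7*, *Plac1*, *Elf5* and *Hand1*. The sum thus holds the called genes *Cdx2* and *Gata3* and is not separate from their calls. In RNA from a whole culture, more cells with a transcript and more of it in each cell cannot be told apart.

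The ES cell identity of both groups was plain from its markers. All 8 markers (*Pou5f1*, *Sox2*, *Nanog*, *Zfp42*, *Esrrb*, *Utf1*, *Tdgf1* and *Dppa5a*) were well above background on all 7 arrays, and their summed signal was 142 to 316 times the 75th percentile after *Hottip* gRNAs and 337 to 413 times after *Hoxa13* gRNAs. Of 15 core and 16 naive pluripotency genes tested, 0 were called. *Nanog* had levels of 4.44, 4.83, 4.55 and 3.98 against 5.30, 6.64 and 4.97 (difference −1.19, limma adjusted p = 0.349), and *Pou5f1*, with levels of 5.28, 5.68, 5.06 and 4.44 against 7.06, 5.59 and 5.70, had an adjusted p of 0.391. Their direction depended on the scaling: the medians of the core and naive lists were −0.69 and −0.66, and became −0.08 and −0.13 after quantile normalization and 0.08 and −0.08 in the authors' log2 values. After quantile normalization *Nanog* differed by −0.47 and *Pou5f1* by −0.12.

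Housekeeping sets moved in the same way with the scaling and held 0 called genes. The median of 80 ribosomal protein genes was −0.69, against 0.08 after quantile normalization and 0.05 in the authors' log2 values. That of 73 subunit genes of oxidative phosphorylation was −0.60, 0.01 and 0.07, and that of 20 glycolysis genes −0.42, 0.13 and 0.07. The direction of these 3 sets thus changed with the scaling. The median of 12 writers and erasers of DNA methylation was −0.60, and −0.10 after quantile normalization. Among these, 19 citric acid cycle genes, 23 cell cycle and replication genes and 36 histone genes, 0 were called.

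**Figure D5:**
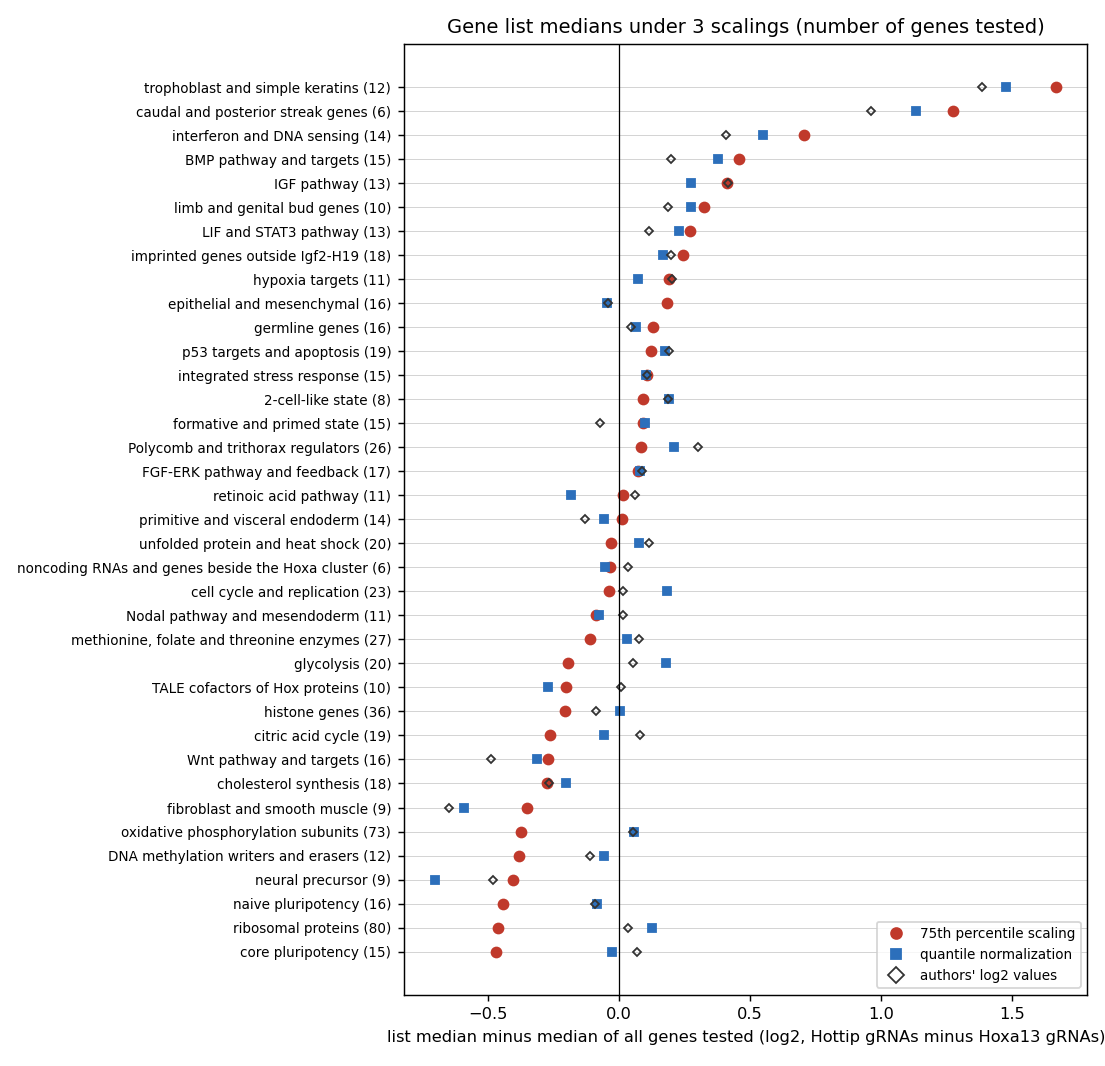
Median difference of each gene list with 6 or more genes tested, less the median of all genes tested (horizontal axis, log2), under 3 scalings shown by symbol, with the number of genes in brackets. The trophoblast and caudal lists, which share Cdx2, lay above 0.9 in each scaling. The ribosomal and oxidative phosphorylation lists lay below 0 in 1 scaling and at or above 0 in the others.

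Among genes of other lineages, 0 of 14 primitive and visceral endoderm genes were called, 6 had a positive difference and the median was −0.21. The matrix protein gene *Sparc* was lowest (−2.76, adjusted p = 0.304, with its probe in the last 30 rows of spots). *Gata6*, a driver of primitive endoderm, had levels of 2.78, 1.78, 2.80 and 2.36 against 0.61, 0.31 and 0.85, without overlap (difference 1.84, limma adjusted p = 0.0953, and 0.0436 without the last 30 rows of spots). The summed signal of 6 endoderm markers, *Gata6* among them, was 4.89 to 9.54 times the 75th percentile against 2.71 to 3.69 times. On the control arrays it ran from 3.23 to 80.1 times, a range that held all *Hottip* gRNA arrays. Of 9 neural precursor genes tested 0 were called, with the neural factor genes *Sox1* (−1.89, adjusted p = 0.117) and *Neurod1* (−2.53, adjusted p = 0.156) lowest and without overlap. Over all tested probes the groups did not overlap at 12.8% on the lower side and, as for *Gata6*, at 5.01% on the higher side. *Nes*, *Olig2* and *Neurog2* were well above background on no array. The summed signal of 6 neural markers (2.41 to 8.75 against 5.22 to 9.48 times) and of 5 mesoderm markers (1.32 to 2.11 against 0.933 to 1.61 times) overlapped between the groups, and so did that of 6 fibroblast markers (0.916 to 6.99 against 1.36 to 2.40 times). In the list of 9 fibroblast and smooth muscle genes tested, *Acta2* and *Tagln* were called lower, *Col1a1* missed the threshold (−2.53, adjusted p = 0.0689), *Myl9* differed by −1.61 (adjusted p = 0.182) and *Thy1* by 0.92 (adjusted p = 0.33).

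Signalling lists held no called genes. The median of 15 genes of the BMP pathway was 0.24, from *Id3* at −0.53 to the antagonist gene *Nog* at 2.36 (adjusted p = 0.362), with the inhibitory Smad gene *Smad6* at 1.83 (adjusted p = 0.136) and the target *Msx2* at 1.25 (adjusted p = 0.34). Among 10 limb and genital bud genes tested, in whose tissues *Hoxa13* acts, *Gli3* differed by 1.52 (adjusted p = 0.366) and *Dlx6* by 2.84 (adjusted p = 0.256), the latter with its probe in the last 30 rows of spots. The zinc-finger genes *Sall3* (−1.26, adjusted p = 0.378) and *Sall1* (−0.54, adjusted p = 0.58) lay on the other side, and the median of the list was 0.10. The lists for LIF and STAT3 (13 tested), Wnt (16), FGF-ERK (17), Nodal (11) and retinoic acid (11) also had 0 calls, with the feedback inhibitor gene *Spry2* at 1.42 and the receptor gene *Rara* at −0.93.

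The median of the interferon and DNA sensing genes depended on which *Hoxa13* gRNA arrays were used. Over 14 genes tested the median was 0.49, and it was 0.50 after quantile normalization, but −0.05 against the array on the shared slide. The antiviral gene *Oas1a* had levels of 1.54, 1.30 and 1.41 on 3 *Hottip* gRNA arrays against −0.96 and −0.68 on 2 *Hoxa13* gRNA arrays (difference 2.23, limma adjusted p = 0.0943), the chemokine gene *Cxcl10* differed by 2.21 (adjusted p = 0.207) and *Ifit2* by 1.66 (adjusted p = 0.269). Stress lists gave no call either: 0 of 19 p53 target and apoptosis genes, 0 of 15 genes of the integrated stress response and 0 of 20 unfolded protein and heat shock genes. Of 16 germline genes, 0 were called. The X-linked homeobox genes *Rhox9* (1.91, adjusted p = 0.117) and *Rhox6* (1.36, adjusted p = 0.201) did not overlap between the groups. This held for 5.01% of all tested probes on the higher side. The median of the list was −0.09, and the helicase gene *Ddx4* lay at −1.33 (adjusted p = 0.471). Of 8 genes of the 2-cell-like state, 0 were called, with a median of −0.13 and differences from −0.84 (*Zfp352*) to 1.14 (*Zscan4c*, adjusted p = 0.274).

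The Polycomb and trithorax regulators, which keep Hox genes silent or active, were tested for 26 genes. None was called, and 0 had an unadjusted p under 0.05. *Men1*, a subunit of MLL complexes, differed by −0.73 (adjusted p = 0.429) and *Aebp2*, a Polycomb cofactor, by 0.98 (adjusted p = 0.477).

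The starts of the called genes were searched for CAATAAA on both strands, letters that posterior Hox proteins are known to favour, in the RefSeq windows of 250 bases before to 50 after the start. Of 28 genes called higher that had a window, 3 held it (10.7%), *Ct55*, *Tchh* and *Upp1*, and of 5 called lower 0 held it, against 294 of 9431 tested genes (3.12%). *Ct55* differed by 2.27. The uridine phosphorylase gene *Upp1* differed by 3.08 at the called probe and by −0.23 at a brighter one that was not called (adjusted p = 0.725), so its probes disagreed. A match is a run of letters in one window and no evidence of binding.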

How the data were processed

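RNA of 10 samples was hybridised to one-colour Agilent arrays, of which 7 are compared here. The authors deposited scanner files whose processed intensity is background-subtracted by Feature Extraction 11.5.1.1 per the file headers, which name the build mm9. The headers give a detrending fit of 0 on *Hottip* gRNA replicates 3 and 4 and of 0.306 to 0.491 on the other arrays. The spike-in slope was 1.16 on *Hoxa13* gRNA replicate 1 and 0.900 to 0.982 on the others. What these differences between arrays contributed was not tested. The authors' table of log2 values followed, probe by probe, the median minus background signal with nearly equal quantiles on all arrays, and served as an alternative. The submitters' processing notes name limma. Here the log2 of the processed intensity was scaled to the 75th percentile of the 59305 non-control spots, outlier spots were left out and spots of 1 probe averaged. Of 55681 probes, 27667 had a gene symbol, 27656 by accession in RefSeq (GRCm38.p6). No coordinate was converted between builds.

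Groups came from the labels. The *Hottip* gRNA and *Hoxa13* gRNA arrays were fitted with limma 3.58.1 in R 4.3.3 without covariates, with Benjamini-Hochberg adjustment over probes well above background on 3 or more arrays. The number of arrays limits the precision. The scripts were tested on simulated data. Lists and list medians used the brightest probe of a gene. Named were all Hoxa genes and neighbours, up to 15 called genes per direction with the largest difference, and in each list the called members or the 2 with the largest difference among those detected on all 7 arrays. Other genes were named after their values were seen. Members and lists were chosen with earlier results of these data known. Of 27 alternatives, 3 were chosen after seeing the data: the percentile without outlier spots, the shared slide with its control arrays, and the last 30 rows of spots left out. Some genes and guides are not reported here.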

Additional observations from a re-analysis of the deposited data

Results flagged for a closer look

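Of 100 probes described, 6 had 1 *Hottip* gRNA array set apart from the other 3, by a gap over the range of the group above Dixon's critical value for 4 samples. Chance alone flags about 1 group in 20. *Acta1* had a gap of 0.927 with replicate 4 lowest, *Hoxa10* 0.916 with replicate 3 highest, *Sct* 0.88 with replicate 3 highest (0.66, 0.62, 1.12 and 0.68), *Igf2os* 0.85 with replicate 4 lowest, *Hoxa4* 0.849 with replicate 4 lowest (−4.46, −4.51, −4.54 and −5.01, all undetected) and *Hsp90aa1* 0.833 with replicate 4 lowest (5.04, 5.37, 4.84 and 2.16). Replicate 4 was the lowest in 4 of the 6.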

How the results depend on the processing

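No result changed direction under the alternatives among the 28 called probes of named genes, with *Bhmt* counted by each of its called probes. Leaving out arrays could not turn it, since their groups did not overlap. In 648 comparisons of these with an alternative they stayed called in 383 and kept the direction without the call in 265. Of 1698 comparisons of 72 uncalled named genes, 12 gave a call, and 83 of 1027 list medians moved by more than the spread of the arrays. The count of 55 called probes (47 higher, 8 lower) became 318 (273, 45) with each array centred on its median, 32 (19, 13) in the authors' log2 values, 13 (11, 2) with normexp and quantile normalization, 24 (22, 2) without the filter on dim probes and 10 (8, 2) with probes detected on all 7 arrays. It was 154 (105, 49) with the control arrays in the fit, 137 (107, 30) with the slide as a block, 101 (76, 25) on the shared slide, 106 (83, 23) there with its controls, 35 (31, 4) with the slide as a random block, 33 (29, 4) with the row of the array on the slide as a block, 27 (24, 3) with a trend in the variance, 30 (27, 3) with the local median subtracted and 134 (92, 42) without the last 30 rows of spots. Normexp alone gave 18 higher and 23 lower. Leaving out 1 array gave 11 to 44 called probes, 11 to 35 higher and 0 to 15 lower. Called genes of the Hoxa cluster and its neighbours, 3 in the report, were 1 with normexp, with and without quantile normalization, 0 with probes detected on all 7 arrays and 2 to 3 without 1 array. The 22 called genes with the largest differences were 13 in the authors' values, 10 with normexp, 7 with normexp and quantile normalization, 13 without the filter, 3 with all 7 arrays, 14 with the slide block, 12 on the shared slide, 13 with the row block, 14 with the trend, 12 with the local median and 7 to 16 without 1 array. The 13 called genes of the lists were 6, 4, 7 and 2 under normexp, normexp with quantile normalization, no filter and all 7 arrays, 21 with the control arrays and also without the last rows, 8 with the row block, 7 with the local median and 5 to 12 without 1 array. With the mean of a gene's probes, 82 genes were called.

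Same-numbered arrays of the groups deviated together with correlations of −0.02, 0.04 and 0.09, and arrays of unlike number with −0.12 to 0.15. These values show no pairing by number. They cannot exclude one, since *Hoxa13* gRNA replicates 1 and 2 were on another slide. With the replicate block 0 probes were called by limma, 0 higher and 0 lower, with 1707 at an unadjusted p under 0.05 and a smallest adjusted p of 0.0931. Dim probes limit the comparison, since 32 of the 47 higher probes were well above background on no *Hoxa13* gRNA array.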
